A study of Mus musculus with 51 samples.

Results

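RNA of the ventral prostate of wild type FVB mice given placebo was compared between 15 d and 48 h of treatment. The comparison holds the 7 arrays whose titles name wild type, placebo and these times, 3 at 15 d and 4 at 48 h, out of 42 arrays in the larger of the deposited tables and 51 in the series. All the mice had a standard diet and an age labelled 8 to 10 weeks, with no separate age for each time. The wild type mice carried no AKT1 transgene and received no RAD001, the mTOR inhibitor that the series was designed around. The labels name neither the placebo's vehicle nor the order in which samples were collected and hybridised, so time and handling cannot be told apart here. The other groups compared are wild type placebo at 12 h (4 arrays) and AKT1 transgenic placebo mice of the same strain. The latter were used at 15 d (7 arrays) and 48 h (5 arrays). The remaining arrays of the larger table also entered the statistical fit and its estimate of spread. They are transgenic placebo at 12 h (4 arrays) and RAD001-treated transgenic mice at 12 h (5), 48 h (4) and 15 d (6). The sources used here do not give the promoter of the transgene. The labels call the arrays biological replicates without naming animals, so each p-value reflects only how much these arrays vary, which may be technical.

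The ventral prostate is a branched gland. Its luminal cells secrete proteins such as probasin (Pbsn) under the control of androgen. Basal cells line the basement membrane, and smooth muscle and fibroblasts surround the ducts and lay down the extracellular matrix. Clusterin (Clu), a secreted chaperone, is known as a gene that rises when the rodent prostate regresses after castration. Placebo groups of one genotype give the level against which drug effects at the same times are read.

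Each value is a linear Affymetrix probe set intensity as deposited. Median intensities were alike, from 103.6 to 105.8 on the 15 d arrays and from 100.6 to 105.1 on the 48 h arrays. Between 72 and 116 probe sets were listed at exactly 0 on a 15 d array, and between 133 and 259 on a 48 h array. In a principal component analysis of the 11 wild type arrays, the first component (29.1% of the variance) set the 12 h arrays apart from both later times, and the third component (14.4%) placed the 15 d arrays from 12.8 to 19.0 and the 48 h arrays at or below -0.52. Replicate 2 of 48 h lay at -35.2 on that component. Its mean correlation with the other 48 h arrays was 0.919, against 0.941 to 0.948 for those 3 arrays. Among the markers of ventral prostate epithelium, Pbsn, the protease inhibitor Spink1 and the keratins Krt8 and Krt18 were bright on every array, Krt8 with 1800 to 2705 and Krt18 with 2458 to 2800 over the 7 arrays. In whole tissue, fewer cells of a type and less RNA per cell cannot be told apart.

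**Figure D1:**
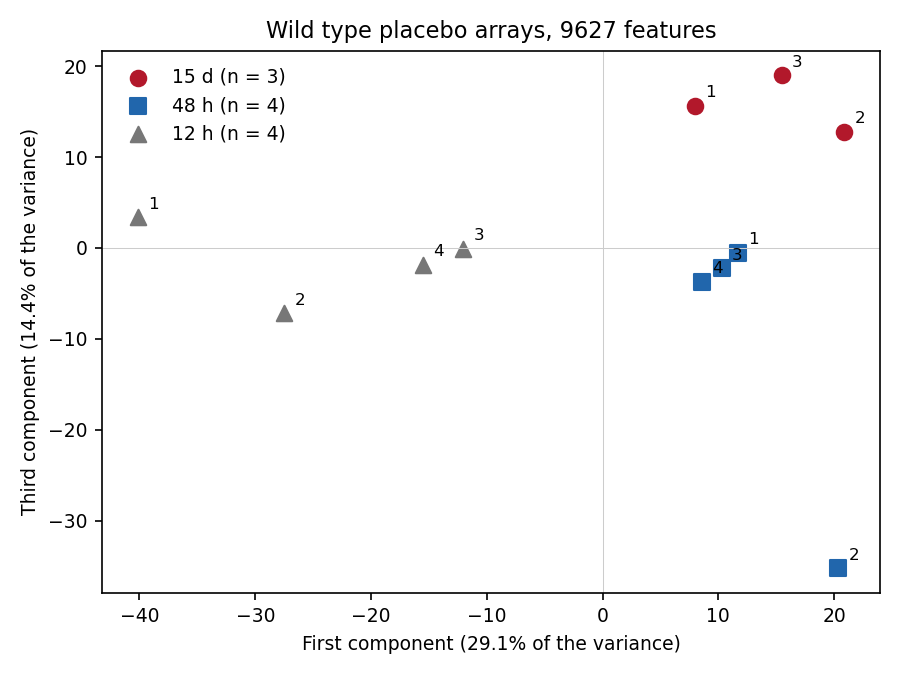
Wild type placebo arrays on the first principal component (x) and the third (y) of the log2 intensities of 9627 features, each point 1 array with its replicate number. The 3 arrays of 15 d lie at the top from 12.8 to 19.0, the 4 arrays of 48 h lie at or below -0.52 with replicate 2 at -35.2, and the 12 h arrays lie to the left.

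Few genes differed between 15 d and 48 h. Of 9627 features tested by limma, 175 (1.82%) passed a Benjamini-Hochberg adjusted p of 0.05 and are called here, 93 higher (0.966%) and 82 lower (0.852%) at 15 d. Of the called features 148 carry a single gene symbol. Only 27 of the 175 (0.28% of all tested) differed by at least 2-fold, 10 up and 17 down, and the median absolute log2 change of the called features was 0.63. Over all features the median absolute change was 0.17 on the log2 scale, a factor of 1.12. The 15 d and 48 h arrays did not overlap for 1870 features (19.4%), 918 higher (9.54%) and 952 lower (9.89%) at 15 d, and 170 of the called features were among them. In the same fit, 2022 features (21%) were called between 15 d and 12 h and 1650 (17.1%) between 48 h and 12 h, with median absolute log2 changes of 0.28 and 0.26. These comparisons share arrays.

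The number of calls depended on single arrays and on the spread borrowed from other groups. It fell to 92 without replicate 3 of 15 d, to 96 without replicate 1 of 15 d and to 114 without replicate 4 of 48 h. Without replicate 2 of 48 h, the array that stood apart on the third component, it was 118. Of the 175 features 41 stayed called whichever of the 7 arrays was left out, 22 higher and 19 lower. On 9 transgenic arrays of 15 d, placebo and RAD001, the first component of all 42 arrays lay above 20, and 440 features were called in wild type once these were left out of the fit. Leaving them out kept 174 of the 175 calls, while a fit of wild type arrays alone kept 124. Of the genes described below, Mgst3, Rcn1, Uqcr11, Srsf1, Ephb3, Guca1b and Lsg1 were not called in that fit.

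The secretory program of the luminal cells showed no called change. None of the 9 androgen and secretory genes tested passed, with a median log2 change of 0.02 against -0.01 over all features. Without overlap, 3 of the 9 were lower at 15 d (Spink1, Slc45a3 and Tmprss2), where 9.89% of all features were. Abo was the 1 gene higher without overlap, where 9.54% of all features were. Pbsn had intensities of 4316, 4133 and 4752 at 15 d, against 3589, 4235, 3818 and 4730 at 48 h, which overlap (log2 change 0.11 ± 0.29, SE, adjusted p = 0.962). Spink1, an abundant secreted trypsin inhibitor, had 8316, 8183 and 7506 at 15 d, against 8801, 9127, 8696 and 8734 at 48 h (log2 change -0.14 ± 0.05, SE, adjusted p = 0.116). Its 15 d arrays were the lower ones without overlap, but the whole difference was a factor of 1.11. Krt8 and Krt18, keratins of luminal cells, overlapped between the times, with log2 changes of -0.03 ± 0.18 and 0.05 ± 0.08 (SE).

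Among 17 luminal epithelial genes 1 was called higher and none lower. Of the 17, 5 were higher at 15 d without overlap, where 9.54% of all features were, and 0 were lower. The median log2 change of the list was 0.004. Its mean deviation from the level over the table ran from -0.28 to -0.15 at 15 d and from -0.52 to -0.32 at 48 h. Ehf, 1 of the 5, spread widely at 48 h (log2 SD 2.64, against 0.23 at 15 d), and this spread enters the list means. Its other probe sets changed by 0.03 and -0.31, neither called. The ranges without Ehf were not computed. The called gene was Spint2, an inhibitor of membrane-bound serine proteases in epithelia. It had 3471, 3145 and 2913 at 15 d, against 1901, 2344, 2474 and 1806 at 48 h. All 3 arrays of 15 d were brighter than all 4 of 48 h (log2 change 0.58 ± 0.14, SE, adjusted p = 0.018), and the other probe set of the gene changed by 0.44 and was called too. Tmprss13, a membrane-bound serine protease, went the other way, with 187, 185 and 242 at 15 d, against 494, 624, 333 and 481 at 48 h. This was a 2.32-fold fall (log2 change -1.22 ± 0.22, SE, adjusted p = 0.00131) and stayed called without any single array. The call on Spint2 was lost without replicate 1 of 15 d (adjusted p = 0.117) and without replicate 2 of 15 d, replicate 1 or replicate 4 of 48 h.

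All probe sets of Clu were lower at 15 d. Its intensity was 2207, 1983 and 2646 at 15 d, against 4759, 5005, 6947 and 7072 at 48 h. The brightest 15 d array lay far below the dimmest 48 h array, and the mean fell 2.59-fold (log2 change -1.37 ± 0.21, SE, adjusted p = 0.000185). All 4 probe sets of the gene were called lower, with log2 changes from -1.47 to -1.34, and the adjusted p stayed at or below 0.003 whichever array was left out. On the 12 h arrays it had 2654, 4630, 4230 and 5960, so that 15 d was also lower than 12 h (log2 change -0.89, adjusted p = 0.00253) while 48 h against 12 h was not called (0.48, adjusted p = 0.0828).

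Clu stood alone in its list. Of the other 11 genes of prostate regression or androgen repression tested, none was called, and the median of the 12 was -0.16. Cd44, a hyaluronan receptor of basal and other cells, had 98.2, 107 and 112 at 15 d, against 147, 210, 170 and 137 at 48 h (log2 change -0.64 ± 0.22, SE, adjusted p = 0.134). Mmp7, a metalloprotease of epithelial cells, had 337, 325 and 243 at 15 d, against 104, 111, 96.7 and 92.4 at 48 h and did not overlap (log2 change 1.57 ± 0.92, SE, adjusted p = 0.458). The SE pools the spread of all groups in the fit. Mmp7 varied widely on the 12 h arrays, from 138 to 927, and on the transgenic placebo arrays of 15 d, from 86.7 to 2740. Without the 9 transgenic arrays of 15 d that lay above 20 on the first component, its limma adjusted p was 0.197. Of the 12 genes, 3 had values above 0. Without overlap, 1 was higher at 15 d (Mmp7), where 9.54% of all features were. Clu and Cd44, 2 of the 12, were lower without overlap, where 9.89% were.

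**Figure D2:**
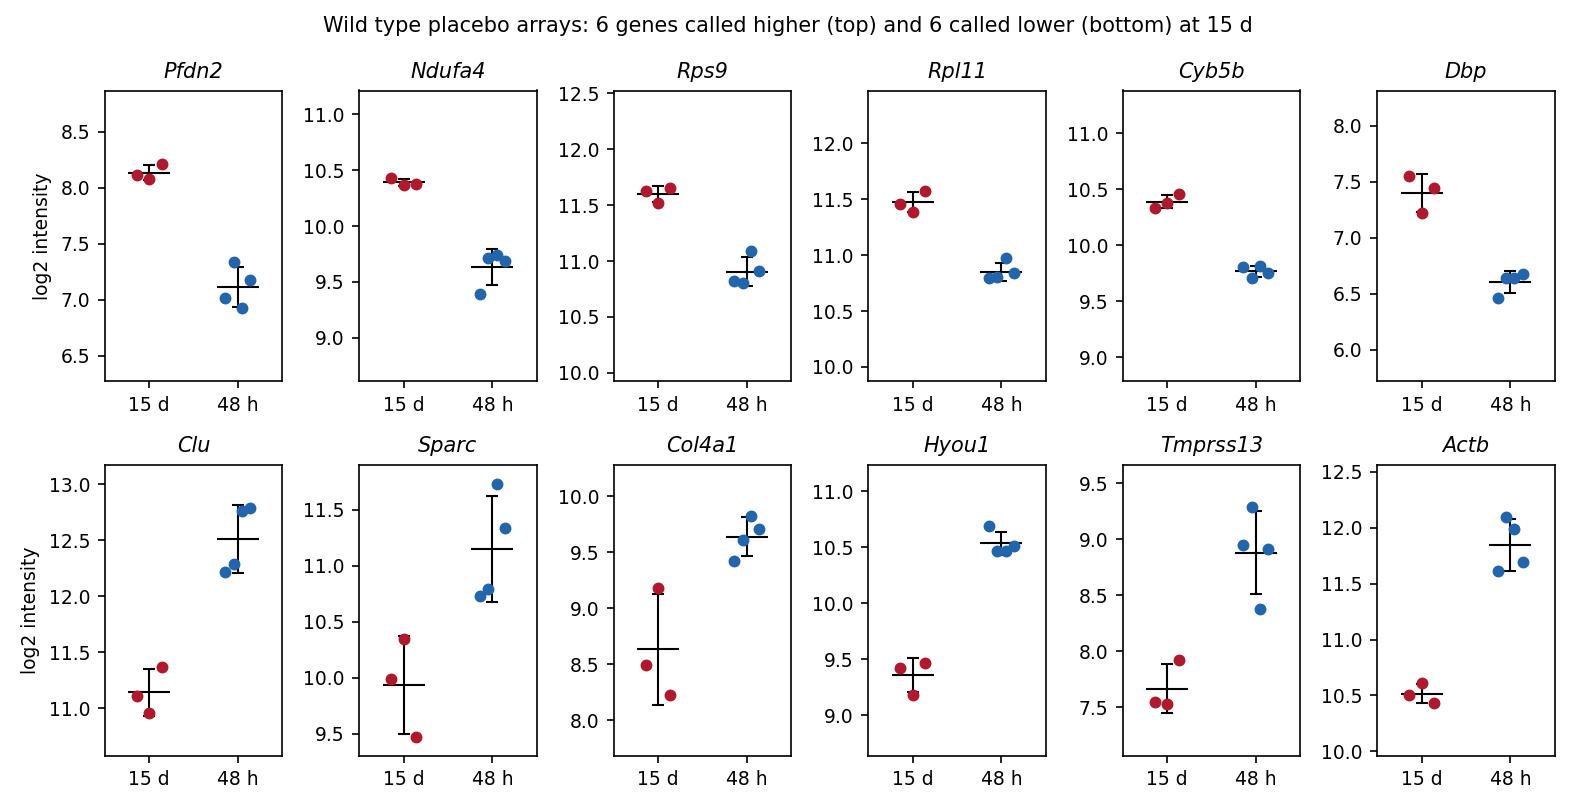
Log2 intensity (y, each panel spanning the same range) on the wild type placebo arrays at 15 d (left, n = 3) and 48 h (right, n = 4) for 6 genes called higher and 6 called lower at 15 d. Points are arrays and bars are the mean ± SD. In every panel the 2 times do not overlap, and Sparc and Col4a1 show the widest spread at 15 d.

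A single call, downward, came from the 15 tested genes of fibroblasts and matrix. It was Sparc, a secreted protein that binds collagen, with 1013, 1298 and 711 at 15 d, against 1696, 1779, 3402 and 2594 at 48 h. It fell 2.32-fold (log2 change -1.22 ± 0.28, SE, adjusted p = 0.0133), and its other probe set changed by -1.37 and was called as well. The call was lost without replicate 3 of 15 d (adjusted p = 0.133) and without replicate 3 of 48 h (0.0619). The median log2 change of the list was -0.31, with 3 values above 0, and 6 of its genes were lower without overlap, where 9.89% of all features were.

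The fibrillar collagens did not pass. Col3a1 had 949, 1089 and 584 at 15 d, against 1310, 1181, 2423 and 2064 at 48 h (log2 change -0.98 ± 0.35, SE, adjusted p = 0.156), yet a dimmer probe set of the gene changed by 1.41 without being called. Col1a2 had 1113, 1086 and 624 at 15 d, against 1299, 1256, 1822 and 1769 at 48 h (log2 change -0.73 ± 0.26, SE, adjusted p = 0.156), and its other probe set had -1.06, not called. Col1a1 had 191 to 277 at 15 d, against values listed at 0 on 3 of the 4 arrays of 48 h and 337 on the other, so no fold is given (adjusted p = 0.0698), and with zeros taken as missing the direction turned. Decorin (Dcn), a proteoglycan of fibroblasts, overlapped, with a log2 change of 0.12 ± 0.20 (SE). Fbln2 and Fstl1, secreted matrix-associated proteins, were lower without overlap at -0.61 each and were not called (adjusted p = 0.156 and 0.194).

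Col4a1, Mfap5 and Bmp1, called genes of the matrix outside that list, were named after their values were seen. Col4a1, a chain of the basement membrane's type IV collagen, had 359, 579 and 299 at 15 d, against 684, 779, 906 and 835 at 48 h and fell 2.01-fold (log2 change -1.01 ± 0.21, SE, adjusted p = 0.00749). Its other probe set changed by -0.44 and was not called. Mfap5, a microfibril protein, had 219, 204 and 185 at 15 d, against 288, 343, 344 and 375 at 48 h (log2 change -0.73 ± 0.16, SE, adjusted p = 0.0114). Bmp1, the protease that trims procollagens, had 157, 156 and 117 at 15 d, against 202, 247, 245 and 216 at 48 h (log2 change -0.67 ± 0.14, SE, adjusted p = 0.0074). All 3 calls were lost without replicate 3 of 15 d (adjusted p 0.0814 to 0.0969), the dimmest array for each, and that of Col4a1 also without replicate 1 of 15 d (0.0505).

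Markers of the cells around the ducts moved unevenly. The mean deviation of the fibroblast and matrix list from its level over the table ran from -0.20 to 0.43 on the 15 d arrays and from 0.20 to 0.48 on the 48 h arrays, and replicate 3 of 15 d held the lowest value. Col1a1 enters the fibroblast means at the floor on every 48 h array except replicate 1, which lowers the means of those arrays. The ranges without Col1a1 were not computed. None of 13 smooth muscle genes was called, and their median change was 0.05. Acta2, smooth muscle actin, had 3322, 3273 and 2670 at 15 d, against 2493, 2351, 4031 and 3318 at 48 h (log2 change 0.05 ± 0.15, SE, adjusted p = 0.978). Of 8 basal epithelial genes none was called, but 5 were lower without overlap, where 9.89% of all features were, and the median was -0.33. The basal list's mean deviation lay from -0.19 to 0.11 at 15 d and from 0.24 to 0.41 at 48 h. Krt5, the basal keratin, had 215, 276 and 245 at 15 d, against 324, 390, 409 and 388 at 48 h (log2 change -0.62 ± 0.18, SE, adjusted p = 0.0653), and Trp63, the basal transcription factor p63, had 140, 150 and 132 at 15 d, against 128, 118, 136 and 114 at 48 h (log2 change 0.18 ± 0.15, SE, adjusted p = 0.653). The part of cell composition in the matrix changes was not tested.

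Among the markers of other cell types, Alas2 was called, 1 of 2 red blood cell genes tested. The lists of endothelium (3 tested), macrophages (10), lymphocytes (6), adipocytes (3), nerve and glia (8), urothelium (3) and skeletal muscle (5) had 0 calls, with no member of the seminal vesicle list bright enough to be tested. The other red cell gene, the anion exchanger Slc4a1, overlapped (log2 change -0.04 ± 0.24, SE, adjusted p = 0.993). Alas2, which makes the first compound of haem synthesis in red cell precursors, had 161, 195 and 156 at 15 d, against 95, 93.8, 101 and 83.1 at 48 h (log2 change 0.87 ± 0.20, SE, adjusted p = 0.0153). The call was lost without replicate 2 of 15 d (adjusted p = 0.0766) or replicate 4 of 48 h (0.053). Acta1, skeletal muscle actin, had 693 to 783 at 15 d, against 460 to 845 on 3 arrays of 48 h and a value listed at 0 on replicate 3 (adjusted p = 0.374).

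**Figure D3:**
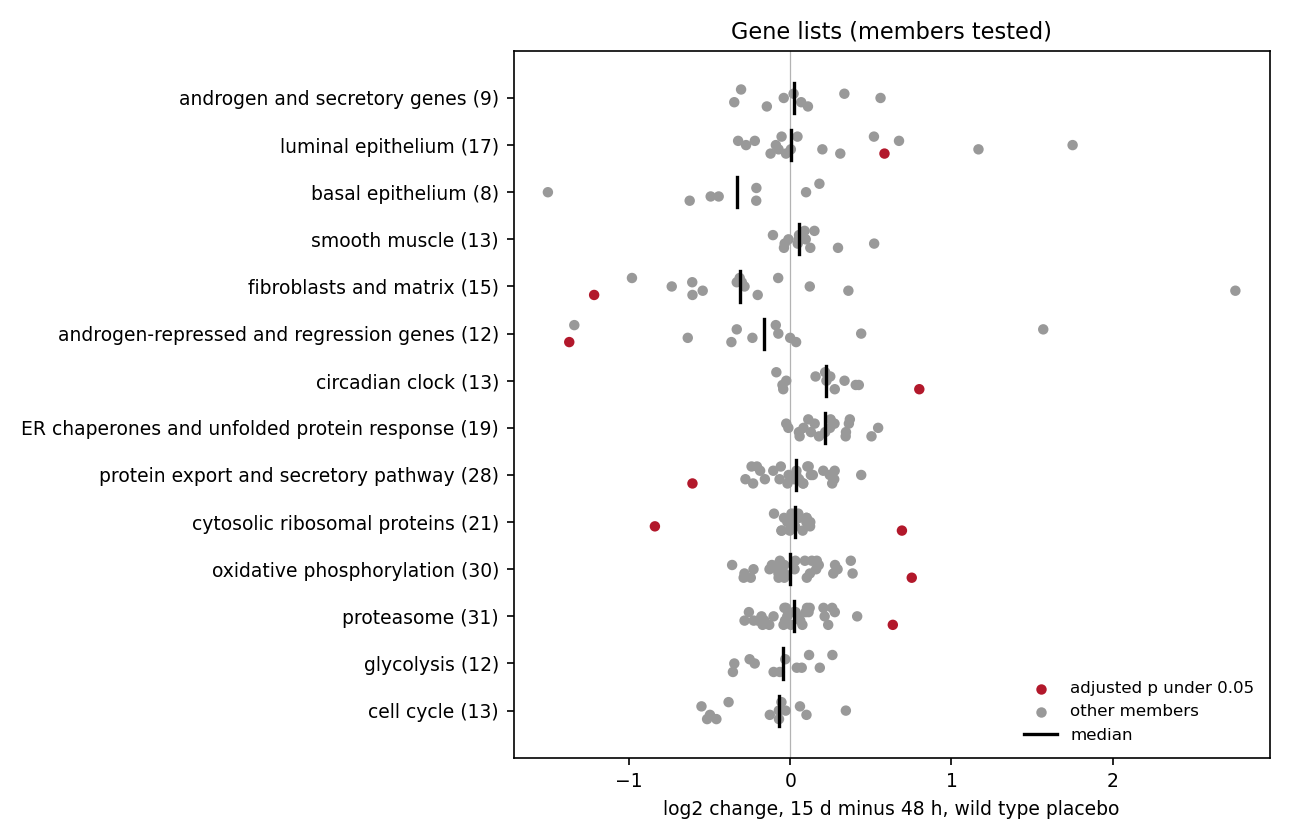
Log2 change (x, 15 d minus 48 h) of the tested members of 14 gene lists (y, number tested in parentheses), with called members in red and the list's median as a bar. Each list holds at most 2 called members, and the medians lie between -0.33 (basal epithelium) and 0.22 (circadian clock).

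Over all 37 lists, 493 genes were tested and 11 were called (2.23%, against 1.82% of all features), 7 higher and 4 lower. At least 1 called gene was found in 10 lists and none in the 26 others with a tested gene. Among the 32 lists with at least 5 tested genes, the medians ran from -0.33 to 0.22. Glycolysis (12 tested), hypoxia targets (15), cholesterol synthesis (17), fatty acid synthesis (11), citric acid cycle (21), cell cycle (13), interferon-induced genes (14), antigen presentation (13) and immediate early genes (18) had 0 calls each by limma. Akt1 and the mTOR pathway genes Mtor and Eif4ebp1 overlapped between the times, with log2 changes of 0.27 ± 0.15, -0.28 ± 0.50 and 0.04 ± 0.19 (SE).

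Several called genes with roles at the cytoskeleton are described next, grouped after their values were seen. Actb, cytoplasmic beta-actin, had 1455, 1563 and 1385 at 15 d, against 3139, 4374, 4066 and 3304 at 48 h, a 2.51-fold fall (log2 change -1.33 ± 0.29, SE, adjusted p = 0.0101). The dimmer probe set of Actb changed by only 0.07 ± 0.75 (SE). Pfn1, profilin, which loads actin monomers, had 960, 853 and 1076 at 15 d, against 508, 455, 551 and 575 at 48 h and rose (log2 change 0.88 ± 0.20, SE, adjusted p = 0.0144). Wdr1, a factor that helps cofilin take actin filaments apart, had 865, 891 and 793 at 15 d, against 624, 556, 560 and 557 at 48 h and rose 1.48-fold (log2 change 0.57 ± 0.11, SE, adjusted p = 0.00201). Its other probe sets changed by 0.53 and -0.16, neither called, and the gene was named after its values were seen. Pfdn2, a prefoldin subunit that passes newly made actin and tubulin to the cytosolic chaperonin, had 277, 271 and 297 at 15 d, against 130, 162, 122 and 145 at 48 h. The groups lay far apart with little spread inside either, a 2.03-fold rise (log2 change 1.02 ± 0.16, SE, adjusted p = 0.000185). Map1b, a microtubule-associated protein, fell 2.24-fold (log2 change -1.16 ± 0.24, SE, adjusted p = 0.00716), while its other probe set changed by 0.65. The calls on Actb, Wdr1, Pfdn2 and Map1b stayed without any single array, that of Actb by a narrow margin (highest adjusted p 0.0497), and that of Pfn1 was lost without replicates 1 or 3 of 15 d or replicate 2 of 48 h.

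Called genes of the secretory pathway included 2 that fell and 3 that rose, the last 3 named after their values were seen. Hyou1, a chaperone of the endoplasmic reticulum (ER), had 685, 582 and 707 at 15 d, against 1654, 1417, 1418 and 1460 at 48 h, a 2.26-fold fall (log2 change -1.18 ± 0.17, SE, adjusted p = 0.000117). A dimmer probe set was also called at -0.82, and another changed by 0.20. Kdelr2, the receptor that returns ER proteins from the Golgi, had 718, 708 and 694 at 15 d, against 1235, 991, 989 and 1106 at 48 h (log2 change -0.61 ± 0.15, SE, adjusted p = 0.0207). It was the only call among 28 genes of protein export, its other probe set changed by 0.14, and its call was lost without any of the 15 d arrays and without replicates 1 or 4 of 48 h. Fkbp2, a prolyl isomerase of the ER, rose (log2 change 0.71 ± 0.17, SE, adjusted p = 0.0153), a call lost without replicates 1 or 3 of 15 d or replicate 3 of 48 h. The ER calcium-binding protein Rcn1 rose by 0.60 (log2, adjusted p = 0.0487), kept its call in 1 of the 7 fits without 1 array and lost it with quantile normalisation. The signal peptidase subunit Sec11a rose by 0.46 (log2, adjusted p = 0.0487), a call lost whichever array was left out.

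The ER chaperone list, which does not hold Hyou1, had no call on the brightest probe set of any gene. Of its 19 genes 17 had values above 0, with a median of 0.22 against -0.01 over all features. The member with the smallest p was Canx, calnexin, with 1660, 1674 and 1687 at 15 d, against 1468, 1365, 1041 and 1450 at 48 h (log2 change 0.34 ± 0.11, SE, adjusted p = 0.0999). Its 15 d arrays were closely grouped, and replicate 3 of 48 h was the dimmest. Tested apart, a dimmer probe set of Canx was called, with a log2 change of 1.06 (adjusted p = 0.0133), and another had 0.01.

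The clock output gene Dbp was called higher, the only call among 13 clock genes. Dbp, a transcription factor whose level cycles through the day, had 188, 149 and 174 at 15 d, against 88, 99.7, 99.8 and 102 at 48 h. The groups did not overlap, and the rise was 1.74-fold (log2 change 0.80 ± 0.18, SE, adjusted p = 0.0114). At 12 h the intensities were 168, 163, 164 and 131, so that 48 h was lower than 12 h (log2 change -0.68, adjusted p = 0.0047) and 15 d was not called against 12 h (0.12, adjusted p = 0.689). Tef, a related factor, had 745, 835 and 680 at 15 d, against 528, 598, 560 and 551 at 48 h without overlap (log2 change 0.43 ± 0.18, SE, adjusted p = 0.253). Per3 and Nr1d2 overlapped, with changes of 0.34 and 0.25, and the median of the list was 0.22. Without overlap, 3 of the 13 were higher at 15 d, where 9.54% of all features were, and 0 were lower. The labels give no hour of day for tissue collection. The Dbp call was lost without replicate 1 (adjusted p = 0.0696) or replicate 3 (0.0535) of 15 d.

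Single members of the machinery for energy, protein synthesis and protein breakdown rose, while the medians of their lists stayed near 0. Ndufa4, a subunit of the respiratory chain, had 1376, 1320 and 1328 at 15 d, against 674, 837, 858 and 826 at 48 h. This was a 1.69-fold rise (log2 change 0.75 ± 0.12, SE, adjusted p = 0.000274) with 3 nearly equal arrays at 15 d. The other 29 genes of the oxidative phosphorylation list were not called, and the median of the 30 was -0.0042. Without overlap, 9 of the 30 were higher at 15 d, where 9.54% of all features were, and 4 were lower, where 9.89% were. Next by p, Ndufa9 and Ndufb5 had values of 0.27 and 0.29 (adjusted p = 0.106 and 0.115), with the other probe set of Ndufb5 at -0.17, and Atp5j, a subunit of ATP synthase, had -0.36 (0.127). Uqcr11, a complex III subunit outside the list, rose (log2 change 0.50 ± 0.12, SE, adjusted p = 0.0177), a call lost without replicate 3 of 15 d or replicate 2 of 48 h. Fis1, which takes part in mitochondrial division, rose 1.59-fold (log2 change 0.67 ± 0.12, SE, adjusted p = 0.00131), with 1130, 884 and 1094 at 15 d, against 601, 598, 745 and 652 at 48 h. Cyb5b, cytochrome b5 of the outer mitochondrial membrane, had 1293, 1331 and 1406 at 15 d, against 893, 836, 898 and 860 at 48 h (log2 change 0.62 ± 0.12, SE, adjusted p = 0.00222). Its 3 probe sets changed by 0.50 to 0.73, and 15 d differed from 12 h by 0.03 (log2). Uqcr11, Cyb5b, Rpl11, Rplp2 and Fstl1 were named after their values were seen.

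Ribosomal protein genes gave calls in both directions. Rps9, of the small subunit, had 3158, 2927 and 3224 at 15 d, against 1815, 1784, 2174 and 1922 at 48 h and rose (log2 change 0.69 ± 0.11, SE, adjusted p = 0.000185). Rpl27a, of the large subunit, had 206, 175 and 211 at 15 d, against 340, 425, 405 and 262 at 48 h and fell (log2 change -0.84 ± 0.21, SE, adjusted p = 0.03), a call lost without any of 6 of the 7 arrays. The other 19 genes of that list were not called, and its median was 0.03. Rpl11, of the large subunit and outside the list, had 2817, 2682 and 3046 at 15 d, against 1775, 1785, 2006 and 1829 at 48 h (log2 change 0.62 ± 0.09, SE, adjusted p = 6.57e-05). Rplp2, also outside it, rose by 0.22 (log2, adjusted p = 0.03), kept its call in 1 of the 7 fits without 1 array and lost it with quantile normalisation. Ribosomal protein genes have many near-identical copies, so these 4 probe sets may read more than 1 locus. In the proteasome 1 of 31 genes rose: Psmb2, a subunit of its core, had 561, 448 and 656 at 15 d, against 348, 354, 364 and 345 at 48 h (log2 change 0.64 ± 0.13, SE, adjusted p = 0.00558), and the call was lost without replicate 3 of 15 d (adjusted p = 0.0817).

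Several factors that handle RNA were among the called genes. Hnrnpl, which binds CA-rich RNA and regulates splicing, had 461, 397 and 557 at 15 d, against 133, 184, 148 and 176 at 48 h, a 2.94-fold rise (log2 change 1.56 ± 0.38, SE, adjusted p = 0.0231). Papola, a poly(A) polymerase, had 198, 268 and 263 at 15 d, against 125, 147, 122 and 136 at 48 h and rose (log2 change 0.86 ± 0.16, SE, adjusted p = 0.00222), but its other probe sets changed by 0.03 and -0.43. Srsf1, a splicing factor, was the only call among 27 splicing genes, with a log2 change of 0.48 ± 0.13 (SE, adjusted p = 0.0478) and 5 other probe sets that all changed upward by 0.16 to 1.41. Upf1, the helicase of nonsense-mediated decay, had 54.2, 92.3 and 63.8 at 15 d, against 185, 152, 164 and 130 at 48 h and fell (log2 change -1.20 ± 0.31, SE, adjusted p = 0.032). Of these 4 only Papola stayed called without any single array. Hnrnpl was lost without replicates 1 or 3 of 15 d or of 48 h, Upf1 without replicates 1 or 3 of 15 d or replicates 1, 2 or 3 of 48 h, and Srsf1 without any array but replicate 4 of 48 h.

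Among single genes of signalling, Ppp2r2d and Igbp1 fell and Pdgfd rose. Ppp2r2d, a regulatory subunit of protein phosphatase 2A, had 473, 316 and 385 at 15 d, against 768, 940, 840 and 864 at 48 h, a 2.20-fold fall with the smallest adjusted p of the named genes (log2 change -1.14 ± 0.16, SE, adjusted p = 6.17e-05). Its dimmer probe set changed by -0.05 ± 0.48 (SE). Igbp1, which binds the catalytic subunit of the same phosphatase, fell by 1.13 on the log2 scale (log2 change -1.13 ± 0.27, SE, adjusted p = 0.018), but 3 other probe sets lay between -0.13 and 0.19. Pdgfd, a ligand of the platelet-derived growth factor receptor, had 128, 94.2 and 162 at 15 d, against 33.5, 46.1, 46.9 and 73.6 at 48 h and rose 2.60-fold (log2 change 1.38 ± 0.32, SE, adjusted p = 0.015). Its call was lost without replicates 1 or 3 of 15 d or replicate 1 of 48 h, and that of Igbp1 without replicates 1 or 2 of 15 d or replicate 2 of 48 h.

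A Wnt receptor and a pair of transcription factors were among the genes that rose. Fzd7, a receptor for Wnt ligands, had 159, 171 and 208 at 15 d, against 114, 118, 103 and 89.4 at 48 h (log2 change 0.76 ± 0.13, SE, adjusted p = 0.00116). Nr2f6, an orphan nuclear receptor, had 267, 286 and 300 at 15 d, against 179, 165, 177 and 178 at 48 h (log2 change 0.70 ± 0.11, SE, adjusted p = 0.000185). Isl1, a homeodomain factor, had 150, 148 and 123 at 15 d, against 68, 74.5, 99 and 77.7 at 48 h (log2 change 0.82 ± 0.17, SE, adjusted p = 0.00599). All 3 stayed called without any single array, and at 12 h all 3 lay near 48 h (log2 differences of 48 h minus 12 h from 0.05 to 0.10). Fzd7 and Nr2f6 were named after their values were seen.

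Trpv6 fell and Cyp24a1 rose. Trpv6, an epithelial calcium channel, had 352, 335 and 652 at 15 d, against 791, 999, 905 and 1210 at 48 h and fell (log2 change -1.18 ± 0.33, SE, adjusted p = 0.0487). Cyp24a1, the enzyme that breaks down active vitamin D, had 85.4, 98.5 and 118 at 15 d, against 60.4, 49.9, 56.6 and 57 at 48 h and rose (log2 change 0.84 ± 0.19, SE, adjusted p = 0.0135). Both differed at 48 h from 12 h as well, Trpv6 by 0.92 (adjusted p = 0.0312) and Cyp24a1 by -0.77 (0.00295). Neither was called at 15 d against 12 h, with differences of -0.26 and 0.06. The Trpv6 call was lost without any array but replicate 3 of 15 d, and that of Cyp24a1 without replicate 3 of 15 d (adjusted p = 0.113).

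Several of the other large rises were in enzymes. Upb1, which completes the breakdown of pyrimidines, had 154, 120 and 146 at 15 d, against 80.7, 62.2, 57.4 and 57.5 at 48 h (log2 change 1.13 ± 0.26, SE, adjusted p = 0.014). Gfpt1, the first enzyme of the hexosamine pathway, had 159, 148 and 289 at 15 d, against 86.8, 111, 80.9 and 97.4 at 48 h (log2 change 1.02 ± 0.26, SE, adjusted p = 0.0326), and without replicate 3 of 15 d its adjusted p was 0.278. Mgst3, a membrane-bound glutathione transferase, had 473, 510 and 622 at 15 d, against 295, 226, 414 and 319 at 48 h (log2 change 0.79 ± 0.21, SE, adjusted p = 0.0366) and kept its call in 1 of the 7 fits without 1 array. The call on Upb1 was lost without replicates 1 or 3 of 15 d, and that of Gfpt1 also without replicate 1 of 15 d or replicates 1, 3 or 4 of 48 h. Chtf8, a subunit of a clamp loader of DNA replication, rose as well (log2 change 0.92 ± 0.20, SE, adjusted p = 0.0114), a call lost without replicate 2 of 15 d or replicate 4 of 48 h. Lrrc58 rose (log2 change 0.81 ± 0.19, SE, adjusted p = 0.018) and lost its call without replicates 1 or 3 of 15 d or replicate 3 of 48 h. Marchf7, a ubiquitin ligase, had 189, 258 and 287 at 15 d, against 394, 568, 495 and 533 at 48 h and fell (log2 change -1.03 ± 0.25, SE, adjusted p = 0.0207). Its other probe set changed by -0.19, its call was lost without replicate 1 of 15 d or replicates 2 or 4 of 48 h, and with quantile normalisation its log2 change was -0.18 (adjusted p = 0.733). Abhd10, a mitochondrial hydrolase, had 25.2, 33.9 and 77.7 at 15 d, against 104, 106, 138 and 112 at 48 h and fell 2.82-fold (log2 change -1.50 ± 0.26, SE, adjusted p = 0.00116).

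Of the largest changes, 4 rested on values of exactly 0. Ephb3, an ephrin receptor, had 433, 269 and 379 at 15 d, against 279 on replicate 1 of 48 h and values listed at 0 on the other 3 arrays. Mknk1, a kinase that phosphorylates the cap-binding protein eIF4E, was listed at 0 on replicates 1 and 3 of 15 d and at 99.7 on replicate 2, against 153, 162, 111 and 179 at 48 h. Guca1b, a calcium sensor of guanylate cyclase, was listed at 0 on replicate 3 of 15 d, and Lsg1, a GTPase of ribosome export, on replicate 2 of 15 d. The call on Ephb3 was lost without any array but replicate 1 of 48 h, that of Guca1b without replicate 3 of 15 d or replicates 1, 2 or 3 of 48 h, and that of Lsg1 without replicate 2 of 15 d or any 48 h array. With exact zeros taken as missing, none of the 4 was called (adjusted p 0.173 to 0.629), and another probe set of Mknk1 changed by 0.07. In all 5 of the called features held a zero on any of the 7 arrays, and 170 of the 175 calls stayed when zeros were taken as missing.

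Probe sets of the same gene gave a further reading within these arrays. Of the 148 called genes 89 had a single tested probe set and 59 had others. The others all had the sign of the called probe set in 32 genes, and at least 1 was called in the same direction in 8. In 18 genes all the others reached 0.5 of the called change, and in 34 none did. Clu, Sparc, Spint2, Cyb5b and Srsf1 were among the 8, and Actb, Igbp1, Papola and Map1b among those where none reached it. Which transcripts the probe sets read was not analysed here.

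**Figure D4:**
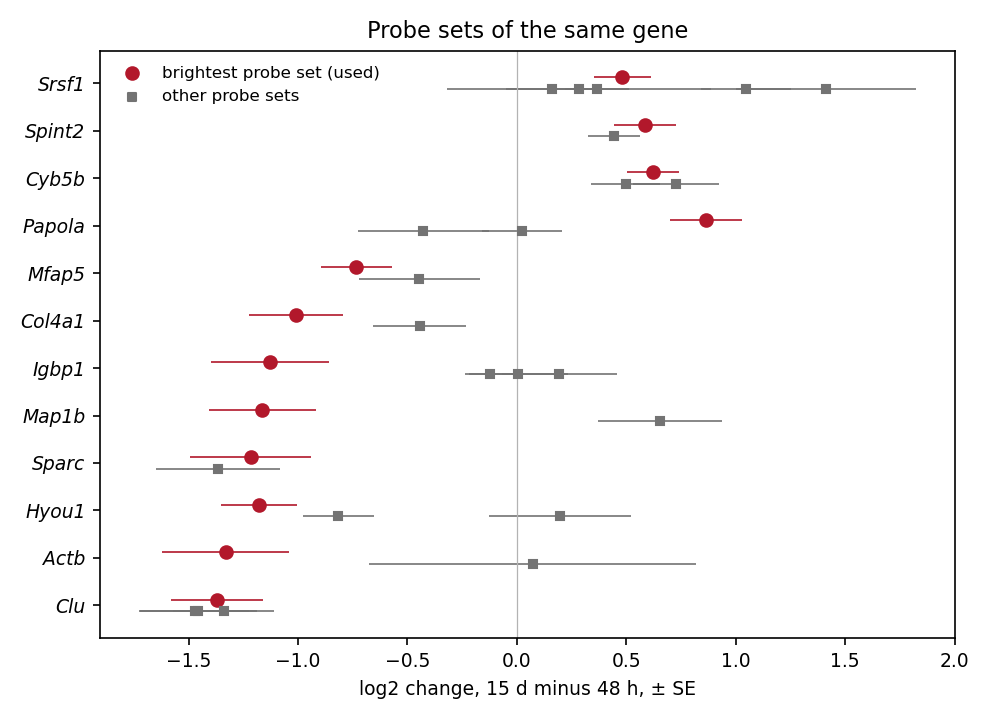
Log2 change (x, 15 d minus 48 h, with SE bars) of each tested probe set of 12 called genes (y), with the brightest probe set, which was used, as a red circle and the others as grey squares. Clu, Sparc, Spint2 and Cyb5b have all probe sets on the same side with changes of like size, while Actb, Igbp1 and Papola have others near 0 or across it.

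The same times were then compared in placebo mice that carry the AKT1 transgene, AKT1 being a kinase upstream of mTOR. In the transgenic mice 4621 features (48%) were called between 15 d and 48 h, and the median absolute log2 change was 0.36. The change in wild type differed from that in transgenic mice, by the interaction contrast in limma, for 2033 features (21.1%). On 5 of the 7 transgenic placebo arrays of 15 d the first component was above 20. Without them and the RAD001 arrays like them, 2 transgenic placebo arrays remained at 15 d, and 159 features differed, 137 of them among the 2033. Of the 175 features called in wild type, 128 had a value in the same direction in transgenic mice. The same-direction share over all features was not computed. By the interaction contrast 69 of the 175 differed in size or direction, or 15 without the arrays that stand apart. The 175 were selected by a wild type change that enters this contrast, so these counts cannot be read against those over all features.

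Clu was among those that differed. In transgenic placebo mice its intensity ran from 4423 to 7044 at 15 d (median 5953) and from 5534 to 6664 at 48 h (median 6284), and its log2 change there was -0.09. The difference, wild type minus transgenic, was -1.28 ± 0.26 (SE, adjusted p = 0.00166), and -1.31 (0.0194) without the arrays that stand apart. Ppp2r2d (-0.73, adjusted p = 0.0094), Fis1 (0.996, 0.000187) and Wdr1 (0.66, 0.00144) differed too, and still did without those arrays (0.0286, 0.0194 and 0.0194). Pfn1, at 0.66 and adjusted p = 0.064, was called only without them (0.89, 0.0194). Dbp (0.82, adjusted p = 0.0102), Col4a1 (-1.04, 0.00735) and Spint2 (0.65, 0.0101) lost the call without them, with differences of 0.58 (0.242), -0.74 (0.157) and 0.52 (0.0946).

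Other genes changed by a like size in both genotypes. Sparc fell by 1.22 on the log2 scale in wild type and by 1.23 in transgenic mice, with a difference of 0.01 ± 0.35 (SE). Ndufa4 rose by 0.75 and by 0.89, with a difference of -0.14 ± 0.15 (SE). Mfap5 fell by 0.73 and by 0.84, with a difference of 0.11 ± 0.21 (SE). Isl1 rose by 0.82 and by 0.88, with a difference of -0.06 ± 0.21 (SE). These 4 were called in both genotypes, and none of the 4 differences was. Krt5 had a value of -0.62 in wild type and 0.19 in transgenic mice, and the difference of -0.82 was called (adjusted p = 0.0121), but not without the arrays that stand apart, where it was -0.76 ± 0.29 (SE, adjusted p = 0.15).

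**Figure D5:**
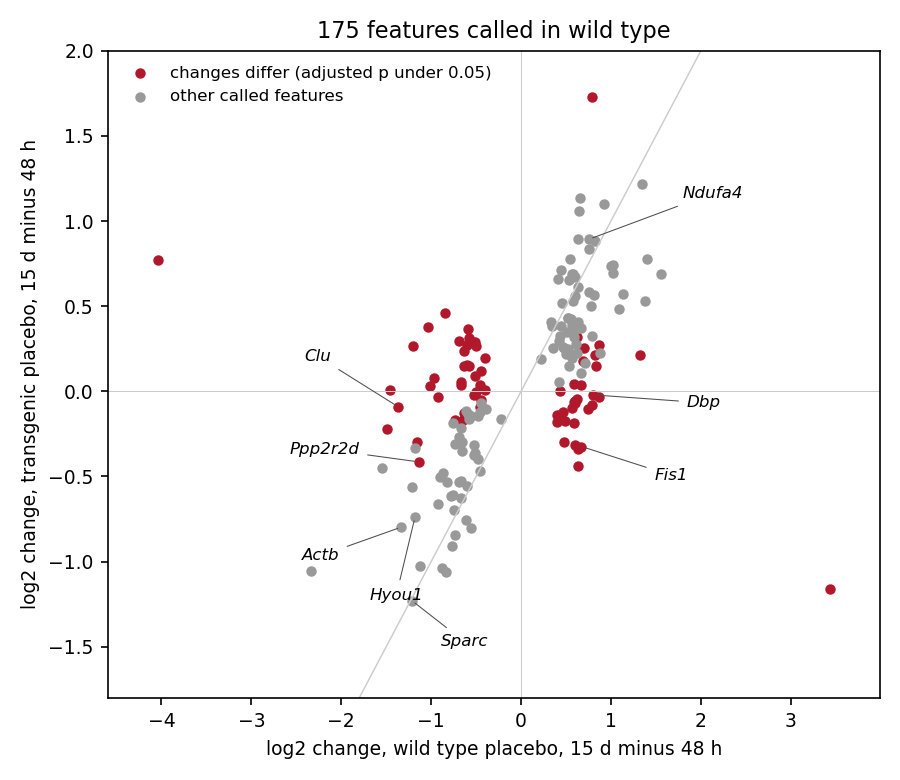
Log2 change, 15 d minus 48 h, in wild type placebo (x) and AKT1 transgenic placebo mice (y) for the 175 features called in wild type. Red points are those whose changes differ between genotypes (69 by the interaction contrast), grey points the rest, and the diagonal marks equal changes. Sparc and Ndufa4 lie near the diagonal, while Clu, Dbp and Fis1 lie near or across 0 in transgenic mice.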

How the data were processed

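Ventral prostate RNA was measured on Affymetrix arrays after biotin labelling, per the labels' protocols. The authors deposited linear probe set intensities; no source used here names the software or the scaling between arrays. Of 22626 probe sets, 20380 have a single gene symbol, 691 several and 1555 none. Symbols came from GEO's platform annotation. 2 probe sets with values beyond the scanner range were left out.

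A floor of 16 was applied before the log2 step and held 10.3% to 12.8% of the values on each of the 7 arrays. Probe sets with a mean log2 under the 40th percentile were left out, and each gene kept its brightest probe set, which gave 9627 features, 8496 of them named. limma 3.58.1 under R 4.3.3 fitted 1 mean per group over all 42 arrays of the table and a trend of the variance on intensity. Benjamini-Hochberg adjustment over all features was used, and calls needed an adjusted p below 0.05. Alternatives changed the filter, floor, scaling, weights and arrays. The number of arrays limits the precision. In a test on simulated data for this comparison, 71% of changes of 1 log2 unit and 22% of those of 0.5 were recovered among 9627 features, with 6 false calls.

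Deviations from the group means correlated between same-numbered arrays of 15 d and 48 h at -0.13, 0.02 and -0.01, so the replicate numbers were not taken as pairs. The genes named are the 15 largest rises and 15 largest falls among called genes, up to 5 members of each list described with the smallest p, its defining markers, Akt1, Mtor, Eif4ebp1, Pbsn and Spink1, some of the 10 genes with the smallest p in the comparison with transgenic mice, and others marked as named after their values were seen. Krt8, Krt18, Acta2 and Dcn are defining markers. The comparison, the lists and the tests were chosen with earlier results of these data known. Some marker genes are not reported here.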

Additional observations from a re-analysis of the deposited data

Results flagged for a closer look

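Within the 48 h group, 1 of the 4 arrays lay apart from the others for 9 of the 80 genes examined. Chance sets 1 apart in about 1 in 20 groups. The genes share these 4 arrays and many were chosen by small p, so the count cannot be judged against that rate. Replicate 1 was the array for Dbp (log2 intensity 6.46, nearest other array 6.64), Wdr1 (9.28, nearest 9.13), Sec11a (9.90, nearest 9.81) and Ndufa4 (9.40, nearest 9.69). It was also the only 48 h array above the floor for Ephb3 and Col1a1, at 8.13 and 8.40 against a floor of 4 for the arrays listed at 0. Acta1 had the floor value of 4 on replicate 3, where it was listed at 0, against 8.85 on the nearest other array. Nr2f6 had 7.37 on replicate 2 against 7.46 on the nearest other array. Dcn had 11.37 on replicate 4 against 11.68 on the nearest other array.

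The change, 15 d minus 48 h, differed between wild type and transgenic placebo mice, by the interaction contrast in limma, for 32 of the 80 genes examined, where 21.1% of all features did. Some of these genes were picked by the smallest p in this contrast, and many by a large wild type change, which enters it. The share among them is therefore raised by the choice and cannot be read against that over all features. The values are log2 differences, wild type minus transgenic. Of genes that fell in wild type, the difference was negative for Lsg1 (-1.47), Upf1 (-1.46), Marchf7 (-1.41), Clu (-1.28), Abhd10 (-1.27), Col4a1 (-1.04), Map1b (-0.86), Kdelr2 (-0.76), Ppp2r2d (-0.73), with adjusted p 0.00166 to 0.0415. Of genes that rose in wild type, it was positive for Rpl11 (0.31), Nr2f6 (0.45), Rps9 (0.51), Papola (0.59), Spint2 (0.65), Wdr1 (0.66), Cyp24a1 (0.69), Srsf1 (0.78), Dbp (0.82), Mgst3 (0.87), Alas2 (0.90), Fis1 (0.996), Ephb3 (4.60), with adjusted p 0.000187 to 0.0423. Among genes not called in wild type it passed for Itga6 (-1.01), Nr1d2 (-0.91), Fbln2 (-0.86), Trp63 (-0.85), Fstl1 (-0.84), Krt5 (-0.82), Atp5j (-0.55), Ndufb5 (0.42), Per3 (0.94), Col1a1 (4.08), with adjusted p 0.00242 to 0.0409. Without the 15 d arrays that stand apart on the first component, all 32 differences kept their sign and Clu, Ppp2r2d, Fis1 and Wdr1 kept their call. Exact zeros enter the values of Ephb3, Col1a1 and Lsg1, so those sizes depend on the floor.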

How the results depend on the processing

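The 175 calls between 15 d and 48 h became 765 with array weights, 331 with all probe sets tested apart (13574 tested), 271 in a fit of the 11 wild type arrays and, as a setting chosen after seeing the data, 440 without the 15 d arrays that stand apart on the first component. They numbered 92 to 146 with 1 of the 7 arrays left out, and 66 to 189 when the wild type arrays alone were fitted with 1 left out, also chosen after seeing the data (66 and 88 without replicates 1 and 3 of 15 d, 113 and 99 without replicates 1 and 4 of 48 h). Under the other settings (filter, floor, quantile normalisation, median scaling, the 7 arrays alone, no intensity trend, arrays with many zeros left out, and zeros as missing, this last chosen after seeing the data) they lay from 144 to 256. Median scaling gave 57 higher and 87 lower, 39.6% higher against 53.1%. With the replicate number as a block 136 were called; the numbers did not pair the arrays. The 2033 differences from transgenic mice became 159 without the arrays that stand apart, 1793 with the replicate block and 1468 to 2951 under the other settings; with 1 array left out they numbered 874 (without wild type replicate 1 of 15 d) to 2626.

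No gene named and called between 15 d and 48 h changed sign under these settings; of those not called, Col1a1 turned to -0.54 with zeros as missing, and Eif4ebp1, Krt8, Krt18, Acta2 and Slc4a1, all near 0, changed sign under some. Over the 80 genes examined, 117 values with 1 array left out and 48 under other settings lost the call, and 1 and 29 gained it. Dim probe sets limit what can be seen: values at the floor of 16 have no order.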

Other observations

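Some of the rises at 15 d over 48 h were of genes whose level at 12 h was closer to 15 d. Cyb5b was lower at 48 h than at 12 h (log2 difference -0.59, limma adjusted p = 0.000547) and differed by 0.03 between 15 d and 12 h (0.887). Upb1 had -0.90 (adjusted p = 0.00946) and 0.23 (0.579) in the same comparisons. For Actb, Hyou1, Hnrnpl, Rps9 and Wdr1 the difference of 48 h minus 12 h lay from -0.04 to 0.01 and was not called, while 15 d was called against both earlier times. Rpl11 lay between: it was lower at 48 h than at 12 h (-0.31, adjusted p = 0.00705) and higher at 15 d than at 12 h (0.31, adjusted p = 0.00963). These comparisons share arrays, so the values stand side by side and give no separate support.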
